A study of Homo sapiens with 15 samples.

Results

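The snoRNA host gene RNAs described here are long RNAs without a known protein product whose introns carry small nucleolar RNAs (snoRNAs). They were chosen by symbol, as GAS5, SNHG1, SNHG3, SNHG5, SNHG6, SNHG7, SNHG8, SNHG12, SNHG15 and ZFAS1, and 9 of the 10 were measured in the table of 12261 genes used here. SNHG6 was not analysed here. The cells were HEK-293 Trex, a cell line derived from human embryonic kidney in which doxycycline switches a transgene on. The 5 groups of 3 libraries were RNA that co-purified with CLIP-tagged UPF1 isoform 1 (UPF1-1 IP), RNA that co-purified with CLIP-tagged UPF1 isoform 2 (UPF1-2 IP), and total RNA of the UPF1-1, the UPF1-2 and the GFP lines. All cells had been given doxycycline at 200 ng/mL. Each protein was expressed in a line of its own, so the lines and the proteins cannot be told apart, and the labels name no deletion of the cells' own UPF1 gene. Purified RNA of the GFP line was not analysed here, so the level in a purification is set against total RNA of the same isoform and replicate number. The labels do not say whether replicates were grown separately, so the tests speak only of the spread among these libraries.

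UPF1 is an RNA helicase that nonsense-mediated decay (NMD), a pathway which degrades RNAs whose translation stops early, depends on. Its isoforms, products of alternative splicing, differ in the length of a regulatory loop in the helicase core. Host transcripts are spliced in the nucleus, where the excised introns are trimmed to snoRNAs that guide chemical modification or cleavage of ribosomal RNA. The spliced exons are exported, are engaged by ribosomes over short open reading frames and are, for several of these genes, a textbook substrate of NMD. GAS5, SNHG1, SNHG5 and ZFAS1 carry mainly box C/D snoRNAs, which guide methylation. SNHG3, SNHG7, SNHG8 and SNHG15 carry box H/ACA snoRNAs, which mostly guide pseudouridylation, and SNHG12 carries mostly H/ACA snoRNAs. Many snoRNA hosts belong to the terminal oligopyrimidine (TOP) class, whose RNAs start with a C followed by further C and T bases and whose translation follows growth signals.

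The start of each host gene is shown because the TOP feature is read from it. RefSeq promoter entries (GRCh38.p14) were found for 8 of the 9 measured hosts by symbol, and SNHG15 had none. Each stretch of 60 bases runs 5′ to 3′ on the gene's own strand, with 20 bases before the annotated first base and 40 from it on. Capitals mark the unbroken run of C and T that begins at the annotated first base, and a stretch with no capitals starts with A or G. The box C/D hosts come first.
GAS5, chr1:173869006-173869065, minus strand: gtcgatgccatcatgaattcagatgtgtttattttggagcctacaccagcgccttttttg
SNHG1, chr11:62855846-62855905, minus strand: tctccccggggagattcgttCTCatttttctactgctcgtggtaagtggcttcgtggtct
SNHG5, chr6:85678694-85678753, minus strand: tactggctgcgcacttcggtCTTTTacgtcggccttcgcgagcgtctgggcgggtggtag
ZFAS1, chr20:49278622-49278681, plus strand: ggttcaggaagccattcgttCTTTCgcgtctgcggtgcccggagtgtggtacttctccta
SNHG3, chr1:28505923-28505982, plus strand: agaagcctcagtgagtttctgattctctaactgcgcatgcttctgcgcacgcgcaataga
SNHG7, chr9:136728145-136728204, minus strand: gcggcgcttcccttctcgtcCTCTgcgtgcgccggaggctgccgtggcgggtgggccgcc
SNHG8, chr4:118278742-118278801, plus strand: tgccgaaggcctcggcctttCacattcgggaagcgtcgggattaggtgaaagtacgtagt
SNHG12, chr1:28581834-28581893, minus strand: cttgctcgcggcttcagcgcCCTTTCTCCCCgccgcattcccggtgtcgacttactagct

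A TOP start was taken as a C at the annotated first base followed by at least 4 bases that are each C or T, on the gene's strand and at that position only. SNHG5, ZFAS1 and SNHG12 had one, so 3 of 8 hosts (37.5%) held it. Over all 35116 promoters of the same length in the table, which gives some genes several, the share was 4.07%. Over the 12362 promoters of genes that the deposited data list, it was 5.35%. Of 11 promoters of other noncoding snoRNA hosts, 1 for each gene, 0 held it. Of 45 promoters of 35 protein-coding snoRNA hosts 17 did (37.8%), 1 for each of 17 genes. These percentages are per promoter, while the 8 hosts had 1 promoter each. Counted by gene, 17 of the 35 protein-coding hosts held it, and 647 of 8417 genes that the deposited data list. The run was 11 bases long in SNHG12, 5 in SNHG5 and ZFAS1, 4 in SNHG7, 3 in SNHG1 and 1 in SNHG8. GAS5 and SNHG3 had none at the base that RefSeq gives as their first, and a start mapped to another base would give another run.

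Levels are given in TPM, a unit of transcript abundance that divides by transcript length, so genes can be ranked within a library. In GFP total RNA SNHG5 was the most abundant host, at 139.8, 142 and 142 TPM, and SNHG12 the least, at 2.51, 1.98 and 3.07 TPM. GAS5 followed SNHG5 with a mean of 63.0 ± 2.95 TPM (SD, n = 3 here and below), and SNHG7 with 29.2 ± 2.04 TPM. SNHG8, whose libraries ran between 15.6 and 36.1 TPM, overlapped SNHG7, SNHG15 and ZFAS1. SNHG7 lay wholly above SNHG15 and ZFAS1, which overlapped each other. SNHG1 at 9.73 ± 0.61 TPM and SNHG3 at 6.52 ± 1.07 TPM stood below them without overlap. By mean, the first 3 places were the same in total RNA of both UPF1 lines, and SNHG12 was the lowest in all 3 lines.

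The order in the purifications was another one. GAS5 led in UPF1-1 IP with 861, 867 and 601 TPM, ahead of SNHG15 and SNHG7, whose libraries overlapped at means of 456 and 439 TPM. In UPF1-2 IP SNHG7 led with 454, 482 and 503 TPM, and GAS5 followed with 428, 420.1 and 317 TPM. SNHG5, the most abundant host in total RNA, was in the fourth place in both purifications, at 232 ± 13.3 TPM in UPF1-1 IP and 167 ± 10.6 TPM in UPF1-2 IP. SNHG3 was the lowest in both, at 6.08 ± 1.20 TPM in UPF1-1 IP and 7.44 ± 1.28 TPM in UPF1-2 IP. Summed over the 9 hosts the level was 2360 ± 242 TPM in UPF1-1 IP and 1622 ± 87.8 TPM in UPF1-2 IP. In total RNA the sum was 377 ± 29.4 TPM for the UPF1-1 line, 358 ± 44.9 TPM for the UPF1-2 line and 316 ± 14.4 TPM for the GFP line. The genes listed in the table together held 54.2% ± 13.7 of the TPM scale in UPF1-1 IP and 54.6% ± 13.2 in UPF1-2 IP, against 15.8% ± 1.77, 14.6% ± 3.80 and 14.9% ± 1.98 in total RNA of the UPF1-1, UPF1-2 and GFP lines. At the median gene the ratio of IP to total TPM was between 5.93 and 7.98 over the 6 pairs of libraries.

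**Figure D1:**
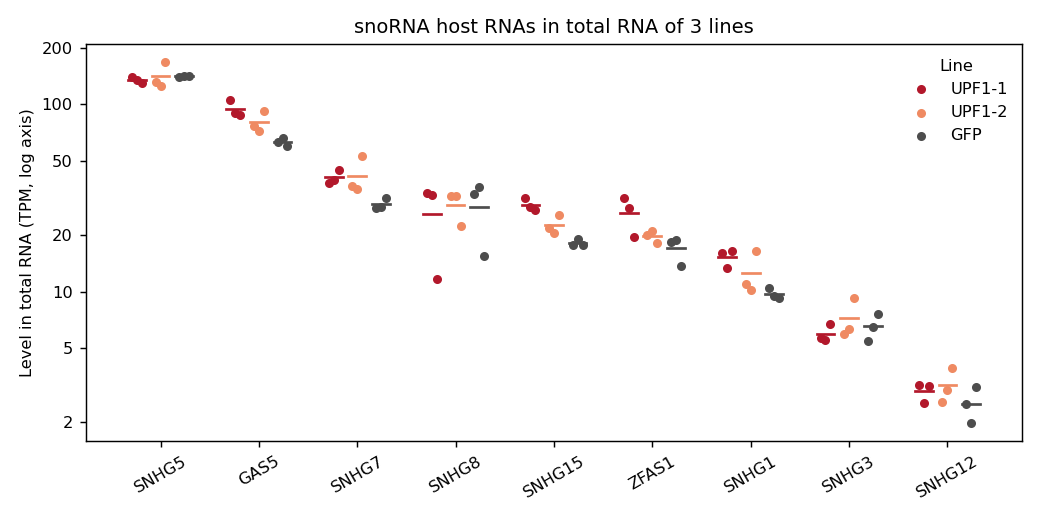
Level of the 9 snoRNA host RNAs in total RNA, in TPM on a log axis, for the UPF1-1, UPF1-2 and GFP lines. Points are the 3 libraries of a line and bars their mean. GAS5, SNHG15, SNHG7, SNHG1 and ZFAS1 of the UPF1-1 line lie above all GFP libraries, while SNHG5, SNHG3, SNHG8 and SNHG12 of these lines overlap.

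The libraries were checked before the hosts were compared. In total RNA the induced gene UPF1 averaged 129 ± 49.8 TPM for the UPF1-1 line and 104 ± 57.9 TPM for the UPF1-2 line, and 5.20 ± 2.93 TPM for the GFP line. NEFL, INA, VIM, KRT8 and KRT18, which HEK-293 cells express, were found in every library, while other markers of the line (NEFM, GATA3, PAX2) and of other cell types (PTPRC, ALB, HBB, CD3E) were not analysed here. The third replicate stood apart in every group. Median levels of listed genes were 2.35, 2.96 and 2.37 TPM in the third total RNA libraries of the UPF1-1, UPF1-2 and GFP lines, against 1.39 to 1.76 TPM in the other 6. SNHG8 was at 11.7, 22.3 and 15.6 TPM in these 3 libraries, below the 32.3 to 36.1 TPM of the rest, and ZFAS1 was also lowest there in each line. The replicate number was a term of the test, and library medians were set equal. Both had been chosen with earlier results of these data known. Changes below are on the scale of log2(TPM + 0.5) after library medians were set equal, so that 0 means an unchanged place relative to the library median, with their standard error (SE), and an adjusted p is that of limma over all genes tested.

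Total RNA of the UPF1-1 line held more of 5 of the 9 host RNAs than total RNA of the GFP line. SNHG15, SNHG1, ZFAS1, GAS5 and SNHG7 rose, by 1.30-fold to 1.49-fold, and 0 of the 9 fell by limma. At an unadjusted p under 0.05 there were 8 hosts, of which SNHG3, SNHG5 and SNHG8 were below 0. The share of all genes at that unadjusted cutoff is not given here, so the count of 8 has no background to be read against. By adjusted p, 8.38% of all 9325 genes tested rose and 7.79% fell. The median change was 0.38 over the 9 hosts and -0.02 over all genes. All 9 hosts passed the filter on low values. In bulk RNA, a change in the number of cells that hold an RNA and a change in its amount per cell cannot be told apart.

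Among the box C/D hosts, GAS5 (ENSG00000234741), named for its rise in growth-arrested cells, had 106, 89.9 and 87.9 TPM in UPF1-1 total RNA, against 62.6, 66.1 and 60.2 TPM in GFP total RNA. In TPM every UPF1-1 library was above every GFP library, while after medians were set equal the groups overlapped, and the change was 0.49 ± 0.06 with an adjusted p of 0.0014 (limma). SNHG1 (ENSG00000255717) had 16.1, 13.4 and 16.6 TPM in UPF1-1 total RNA, against 10.4, 9.50 and 9.26 TPM in GFP total RNA. These groups did not overlap either, and SNHG1 changed by 0.54 ± 0.08 (limma adjusted p = 0.00341). ZFAS1 (ENSG00000177410), which is transcribed antisense to the promoter region of ZNFX1, had 31.7, 28.1 and 19.5 TPM in UPF1-1 total RNA, against 18.5, 18.8 and 13.7 TPM in GFP total RNA. The groups were apart in TPM and overlapped after medians were set equal. The third library was the lowest in both groups, and within each replicate number UPF1-1 was higher, by 0.58, 0.52 and 0.45 on the log2 scale. The fitted change of ZFAS1 was 0.52 ± 0.05 (limma adjusted p = 0.000911). Whether the counting used strand is not given in the sources used here, so reads of ZFAS1 and of an overlapping antisense transcript cannot be told apart. SNHG5 (ENSG00000203875), the fourth box C/D host, had 141, 135 and 131 TPM in UPF1-1 total RNA, against 139.8, 142 and 142 TPM in GFP total RNA. The groups overlapped, and its change of -0.15 ± 0.05 did not pass (limma adjusted p = 0.0929).

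The box H/ACA hosts were split as well. SNHG15 (ENSG00000232956) had 31.6, 28.4 and 27.3 TPM in UPF1-1 total RNA, against 17.7, 19.0 and 17.7 TPM in GFP total RNA. Its groups lay far apart, and its change of 0.58 ± 0.06 (limma adjusted p = 0.000711) was the largest of the 9. SNHG7 (ENSG00000233016) had 38.1, 39.6 and 44.5 TPM in UPF1-1 total RNA, against 27.9, 28.3 and 31.6 TPM in GFP total RNA. It changed by 0.38 ± 0.06 (limma adjusted p = 0.0057), again without overlap. SNHG3 (ENSG00000242125) had 5.64, 5.54 and 6.72 TPM in UPF1-1 total RNA, against 5.46, 6.49 and 7.60 TPM in GFP total RNA. SNHG3 at -0.20 ± 0.06 (adjusted p = 0.057) and SNHG8 (ENSG00000269893) at -0.26 ± 0.09 (adjusted p = 0.0932) did not pass limma's threshold. SNHG12 (ENSG00000197989), with 3.17, 2.53 and 3.12 TPM in UPF1-1 total RNA against 2.51, 1.98 and 3.07 TPM in GFP total RNA, was at 0.11 ± 0.10 (limma adjusted p = 0.476). SNHG5, SNHG3 and SNHG8 were below 0 in all 3 replicate numbers, and with upper quartiles in place of medians set equal SNHG3 (limma adjusted p = 0.0319) and SNHG5 (0.0448) passed as lower.

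The rises depended on the replicate term. Without it 0 of the 9 hosts passed by limma and 16 genes did in all, while the changes themselves were the same. Without the third replicate the same number of hosts, 5, passed as higher. Without the second, SNHG7 no longer passed (limma adjusted p = 0.0934). In the authors' deposited table the log2 fold changes of the risen hosts were 0.59 for GAS5, 0.66 for SNHG1, 0.64 for ZFAS1, 0.68 for SNHG15 and 0.48 for SNHG7. The smallest q over the 9 hosts in the authors' deposited table was 0.999984, and the smallest p was 0.0498, for SNHG1.

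**Figure D2:**
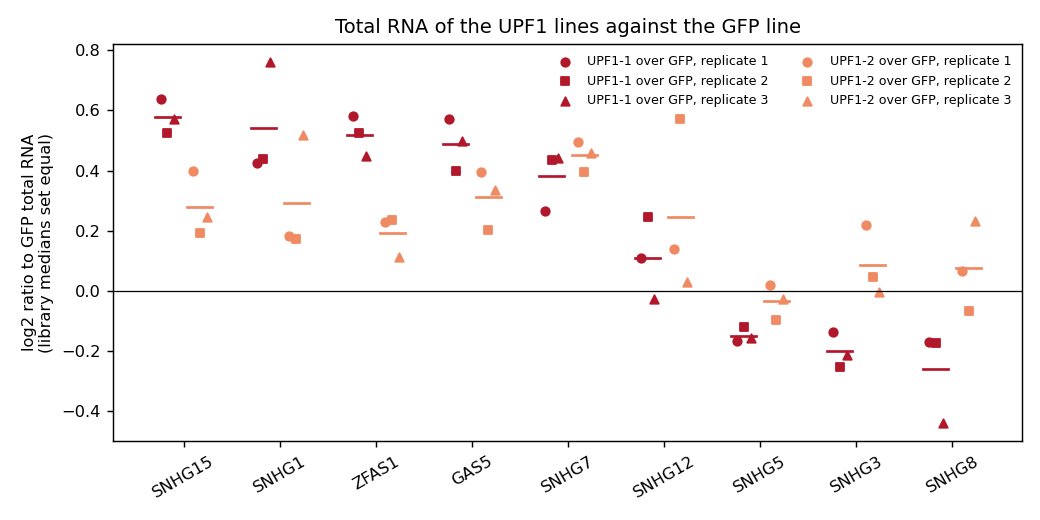
Change of the 9 host RNAs in total RNA against the GFP line, as log2 ratio with library medians set equal, for the UPF1-1 line (left of each pair) and the UPF1-2 line. Symbols are the 3 replicate numbers and bars the fitted change; SNHG15, SNHG1, ZFAS1, GAS5 and SNHG7 of the UPF1-1 line are above 0 in all 3, at fitted values of 0.38 to 0.58.

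With UPF1-2 a single host, SNHG7, rose over GFP. SNHG7 had 36.5, 35.4 and 52.9 TPM in UPF1-2 total RNA, against 27.9, 28.3 and 31.6 TPM in GFP total RNA. Every UPF1-2 library was above every GFP library, and the change was 0.45 ± 0.06 (limma adjusted p = 0.0265). This comparison called few genes at all: 0.279% of the 9325 tested rose and 0.0965% fell. SNHG7 no longer passed when any of the replicates was left out (limma adjusted p of 0.102, 0.330 and 0.0798 without replicate 1, 2 and 3), when medians were not set equal (0.351) or without the replicate term, where 0 of the 9 hosts and 3 genes in all passed.

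The other 8 hosts did not pass, and 6 of the 9 had an unadjusted p under 0.05. The share of all genes at that cutoff is not given here, so this count has no background to be read against. GAS5 had 76.5, 72.0 and 92.4 TPM in UPF1-2 total RNA, against 62.6, 66.1 and 60.2 TPM in GFP total RNA, and SNHG15 had 21.8, 20.6 and 25.6 TPM in UPF1-2 total RNA, against 17.7, 19.0 and 17.7 TPM in GFP total RNA. Neither overlapped in TPM, both did after medians were set equal, and their changes were 0.31 ± 0.06 (limma adjusted p = 0.0701) and 0.28 ± 0.06 (0.102). SNHG1 was at 0.29 ± 0.08, ZFAS1 at 0.19 ± 0.05 and SNHG12 at 0.25 ± 0.10, with limma adjusted p of 0.197, 0.197 and 0.359. SNHG3 (0.09 ± 0.06), SNHG8 (0.08 ± 0.09) and SNHG5 (-0.03 ± 0.05) lay near 0. The median change was 0.25 over the 9 hosts, against -0.02 over all genes. With upper quartiles set equal GAS5 passed as well (limma adjusted p = 0.0368). The comparisons of the UPF1 lines with GFP share their GFP libraries. The smallest q over the 9 hosts in the authors' deposited table was 0.999999 for UPF1-2 against GFP.

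The UPF1-1 and UPF1-2 lines were then compared directly. ZFAS1 and SNHG15 were higher in UPF1-1 than in UPF1-2 total RNA, and SNHG3 was lower, so 2 of 9 hosts were higher and 1 was lower. Of all genes tested 5.49% were higher and 4.02% lower. ZFAS1 had 31.7, 28.1 and 19.5 TPM in UPF1-1 total RNA, against 20.1, 21.0 and 18.1 TPM in UPF1-2 total RNA. The groups overlapped through the third UPF1-1 library, while within replicate numbers UPF1-1 was higher by 0.35, 0.29 and 0.33 on the log2 scale, and the fitted change was 0.33 ± 0.05 (limma adjusted p = 0.0115). SNHG15, with every UPF1-1 library above every UPF1-2 library in TPM but not after medians were set equal, changed by 0.30 ± 0.06 (limma adjusted p = 0.0179). SNHG3 had 5.64, 5.54 and 6.72 TPM in UPF1-1 total RNA, against 5.93, 6.32 and 9.29 TPM in UPF1-2 total RNA. It was lower within each replicate number and changed by -0.29 ± 0.06 (limma adjusted p = 0.0267).

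SNHG8 at -0.34 ± 0.09 (adjusted p = 0.0573), SNHG1 at 0.25 ± 0.08 (0.0776) and GAS5 at 0.18 ± 0.06 (0.0794) missed limma's threshold between the isoforms. SNHG7, the host that rose over GFP in both lines, differed by -0.07 ± 0.06 (limma adjusted p = 0.491). All 3 calls were lost without the replicate term and when medians were not set equal. ZFAS1 was lost without replicate 1 or 2 (limma adjusted p = 0.0522 and 0.153), SNHG15 without replicate 2 or 3 (0.187 and 0.0674) and SNHG3 without replicate 1 or 2 (0.0996 and 0.215).

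Recovery with tagged UPF1 spread the hosts over a range of -2.54 to 1.38 with UPF1-1, against -0.26 to 0.58 in the change of total RNA over GFP. Recovery here is the log2 change from total RNA to IP relative to the library medians, not a level set against the median gene. With UPF1-1, SNHG15, SNHG1, SNHG7 and SNHG12 passed as higher (4 of 9) and SNHG5, SNHG8 and SNHG3 as lower (3 of 9). Of all 11969 genes tested 30.8% passed as higher and 43.9% as lower, so most genes passed in one direction or the other. The hosts' median was 0.45, against -0.16 over all genes. Unless medians were set equal the median of all genes moved up by 2.56, so the ratios of IP to total TPM are given first.

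SNHG15 had 473, 495 and 400.4 TPM in UPF1-1 IP, against 31.6, 28.4 and 27.3 TPM in UPF1-1 total RNA. The ratio was 15.7 ± 1.53 (SD, n = 3), while that of the median gene was 6.58, 6.34 and 7.98 in the 3 replicate numbers. Relative to the medians SNHG15 was at 1.38 ± 0.13 on the log2 scale (limma adjusted p = 2.59e-05). SNHG1 had 214, 215 and 216 TPM in UPF1-1 IP, against 16.1, 13.4 and 16.6 TPM in UPF1-1 total RNA, a ratio of 14.1 ± 1.67. Relative to the medians this was 1.21 ± 0.16 (limma adjusted p = 0.000142). SNHG12, the least abundant host in total RNA, had 35.1, 30.1 and 40.02 TPM in UPF1-1 IP, against 3.17, 2.53 and 3.12 TPM in UPF1-1 total RNA. Its ratio of 11.9 ± 0.89 gave 0.81 ± 0.08 (limma adjusted p = 2.55e-05), and SNHG7 with a ratio of 10.8 ± 0.16 gave 0.85 ± 0.12 (0.000226).

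SNHG3, SNHG8 and SNHG5 were at the other end. SNHG3 had 5.26, 5.54 and 7.46 TPM in UPF1-1 IP, against 5.64, 5.54 and 6.72 TPM in UPF1-1 total RNA, a ratio of 1.01 ± 0.09. The groups overlapped in TPM, and relative to the medians SNHG3 was at -2.54 ± 0.08 (limma adjusted p = 1.05e-07), against 0.02 ± 0.12 with medians not set equal. SNHG5 had 247, 229.9 and 220.3 TPM in UPF1-1 IP, against 141, 135 and 131 TPM in UPF1-1 total RNA. Its TPM was thus higher by a ratio of 1.71 ± 0.03, while relative to the medians it was at -1.79 ± 0.12 (limma adjusted p = 3.31e-06). SNHG8 had a ratio of 1.69 ± 0.67 and was at -1.89 ± 0.12 relative to the medians (limma adjusted p = 1.89e-06), against 0.67 ± 0.17 with medians not set equal. The values of these 3 thus changed sign with the scaling.

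GAS5 and ZFAS1 lay between these ends with UPF1-1. GAS5 had the ratios 8.13, 9.64 and 6.83, and relative to the medians it was at 0.57, 0.87 and -0.08, with a fitted value of 0.45 ± 0.18 that missed limma's threshold (adjusted p = 0.0515). Without the third replicate it passed, at 0.72 (limma adjusted p = 0.000667). ZFAS1 had 192, 197 and 96.8 TPM in UPF1-1 IP, against 31.7, 28.1 and 19.5 TPM in UPF1-1 total RNA. Relative to the medians it was at -0.01 ± 0.17 (limma adjusted p = 0.966), with replicate values of 0.13, 0.40 and -0.56. Without the third replicate ZFAS1 passed as higher, at 0.26 (limma adjusted p = 0.0362), and 6 hosts did in all.

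With UPF1-2 the same 4 hosts passed as higher and 4 hosts as lower, while 31.5% of all genes passed as higher and 44.2% as lower. The highest were SNHG15 at 1.15 ± 0.13, SNHG7 at 1.01 ± 0.12, SNHG1 at 0.96 ± 0.16 and SNHG12 at 0.51 ± 0.08, with limma adjusted p of 7.27e-05, 8e-05, 0.000527 and 0.000379. SNHG7 had 454, 482 and 503 TPM in UPF1-2 IP, against 36.5, 35.4 and 52.9 TPM in UPF1-2 total RNA. Its ratio of 11.9 ± 2.12 stood beside 7.91, 6.88 and 5.93 for the median gene. SNHG15 had 299.9, 311 and 276 TPM in UPF1-2 IP, against 21.8, 20.6 and 25.6 TPM in UPF1-2 total RNA, a ratio of 13.2 ± 2.22.

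SNHG3 (-2.47 ± 0.08), SNHG5 (-2.29 ± 0.12), SNHG8 (-1.70 ± 0.12) and ZFAS1 (-0.98 ± 0.17) passed as lower in recovery with UPF1-2, with limma adjusted p of 1.54e-07, 9.5e-07, 3.14e-06 and 0.000824. All 4 were above 0 with medians not set equal. In TPM, SNHG3 had a ratio of 1.05 ± 0.09, SNHG5 of 1.20 ± 0.24, SNHG8 of 1.80 ± 0.19 and ZFAS1 of 3.01 ± 0.62. ZFAS1 had 66.1, 72.5 and 41.7 TPM in UPF1-2 IP, against 20.1, 21.0 and 18.1 TPM in UPF1-2 total RNA. It did not pass without the block (limma adjusted p = 0.158). GAS5 was at -0.27 ± 0.18 (limma adjusted p = 0.217), with ratios of 5.59, 5.84 and 3.43, and with a pseudocount of 0.1 in place of 0.5 it passed as lower (-0.49, limma adjusted p = 0.0311). The median over the 9 hosts was -0.27, against -0.15 over all genes.

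**Figure D3:**
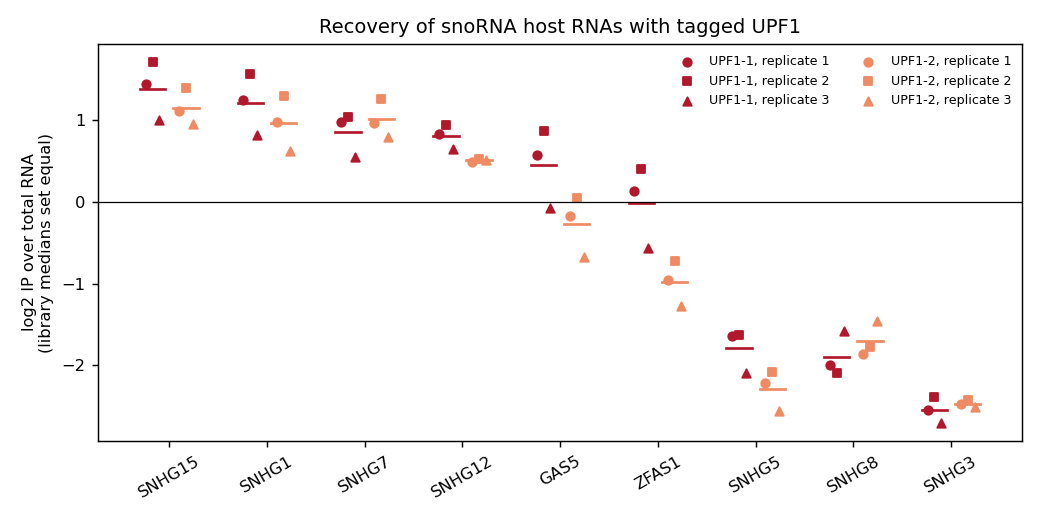
Recovery of the 9 host RNAs with UPF1-1 (left of each pair) and UPF1-2, as log2 of IP over total RNA with library medians set equal. Symbols are the 3 replicate numbers and bars the fitted value; SNHG15 and SNHG1 are highest with UPF1-1, at 1.38 and 1.21, and SNHG3 is lowest with both isoforms, at -2.54 and -2.47.

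Whether the TOP starts shown above go with recovery was not tested. Of the 3 hosts with one, SNHG12 passed as higher and SNHG5 as lower in recovery with both isoforms, and ZFAS1 passed as lower with UPF1-2 only. A link of recovery with the class of snoRNA was not tested either. Relative to the medians, the box C/D hosts with UPF1-1 ran between 1.21 for SNHG1 and -1.79 for SNHG5, and the box H/ACA hosts between 1.38 for SNHG15 and -2.54 for SNHG3.

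The difference in recovery between the isoforms was tested in the same fit. ZFAS1 was the host that passed, with more recovered with UPF1-1 than with UPF1-2, by 0.97 ± 0.24 (limma adjusted p = 0.0426). Of all genes 4.43% passed as higher and 6.27% as lower. The ratio of IP to total TPM of ZFAS1 was 6.06, 7.02 and 4.97 with UPF1-1, against 3.29, 3.46 and 2.30 with UPF1-2. These ratios did not overlap, and within replicate numbers UPF1-1 exceeded UPF1-2 by 1.09, 1.12 and 0.71 on the log2 scale after medians were set equal. The call was lost without the block (limma adjusted p = 0.923), when medians were not set equal (0.121), with a pseudocount of 1 (0.0633), without replicate 1 (0.326) and without replicate 2 (0.0874).

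GAS5 followed at 0.72 ± 0.26 (limma adjusted p = 0.113), with differences of 0.74, 0.82 and 0.60 in the 3 replicate numbers. SNHG5 was at 0.50 ± 0.17 (0.0992) and SNHG12 at 0.30 ± 0.11 (0.120). SNHG1 (0.25 ± 0.22), SNHG15 (0.23 ± 0.19), SNHG3 (-0.08 ± 0.12), SNHG7 (-0.15 ± 0.17) and SNHG8 (-0.19 ± 0.16) had limma adjusted p of 0.461 or more. The median over the hosts was 0.25, against -0.04 over all genes. When the isoforms were paired by replicate number on the ratio itself, a fit added after the data were seen, ZFAS1 (limma adjusted p = 0.0047), GAS5 (0.00476) and SNHG5 (0.00694) passed as higher, and 2997 genes passed in all in place of 1280. Without the third replicate the number was also 3. UPF1 itself had 3201 ± 1304 TPM in UPF1-1 IP and 3179 ± 1803 TPM in UPF1-2 IP, and the part of the amount of tagged protein in these differences was not tested.

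**Figure D4:**
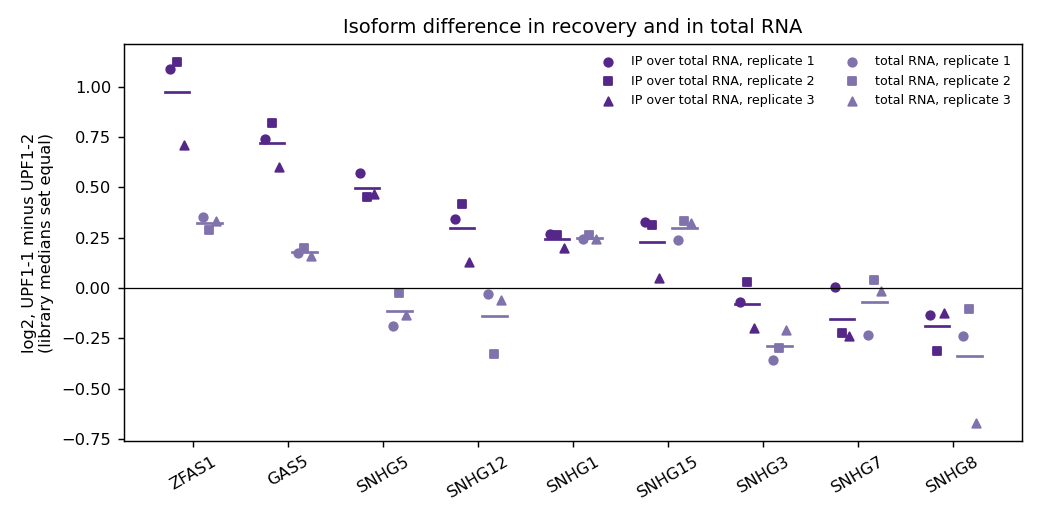
Difference between UPF1-1 and UPF1-2 for the 9 host RNAs, in recovery (log2 IP over total RNA, left of each pair) and in total RNA, with library medians set equal. Symbols are the 3 replicate numbers and bars the fitted value. ZFAS1, GAS5 and SNHG5 are highest in recovery, at 0.97, 0.72 and 0.50. They are above 0 in all 3 numbers, as are SNHG12, SNHG1 and SNHG15. ZFAS1 is also highest in total RNA, at 0.33.

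Other snoRNA hosts and genes of the pathway were set beside these 9 from lists. Of 12 other noncoding hosts, 7 were found in the table by symbol and 5 by gene ID under an older name. In UPF1-1 over GFP 2 of these 12 rose and 2 fell by limma, beside 8.38% and 7.79% of all genes, with a median of 0.02. In UPF1-2 over GFP 1 rose and 0 fell, beside 0.279% and 0.0965% of all genes. C6orf48, a host of box C/D snoRNAs, rose by 0.71 ± 0.06 over GFP in UPF1-1 (limma adjusted p = 0.000296) and by 0.38 ± 0.06 in UPF1-2 (0.0321), at means of 55.5, 42.4 and 31.7 TPM in total RNA of the UPF1-1, UPF1-2 and GFP lines. EPB41L4A-AS1 was the other that was higher in UPF1-1 (0.23, limma adjusted p = 0.0316). DANCR, an RNA that restrains differentiation, fell by 0.35 in UPF1-1 (limma adjusted p = 0.00754), and RP11-752G15.6, listed by its gene ID as SNHG21, fell by 0.45 (0.0196). EPB41L4A-AS1 and RP11-752G15.6 lie outside the rule for named genes and were named after their values were seen.

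Protein-coding snoRNA hosts include many ribosomal protein genes. Of 44 tested, 2 rose and 6 fell in UPF1-1 over GFP, beside 8.38% and 7.79% of all genes, with a median of -0.12, and 0 passed in UPF1-2 by limma, where 6 had an unadjusted p under 0.05. EIF4A2, a translation initiation helicase, rose by 0.46 ± 0.06 in UPF1-1 (limma adjusted p = 0.00209) and CWF19L1 fell by 0.72 ± 0.08 (0.00106). Of 17 snoRNP proteins and assembly factors 0 rose and 2 fell in UPF1-1 over GFP by limma, against the same shares of all genes, and 4 had an unadjusted p under 0.05. The fallen ones were NOP58 and FBL, core proteins of the box C/D particle, which fell by 0.39 and 0.35 (limma adjusted p = 0.0182 and 0.0206). Of 11 tested mRNAs known as NMD targets 8 were higher and 0 lower in UPF1-1 by limma (9 at an unadjusted p under 0.05), with a median of 0.35. In UPF1-2 1 of these mRNAs was higher, beside 0.279% of all genes. The stress regulator ATF3 was the highest of them in UPF1-1, at 0.95 ± 0.06 (limma adjusted p = 5.65e-05). For the counts at an unadjusted p under 0.05 in these lists, the share of all genes is not given here.

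In recovery, relative to the medians, the protein-coding hosts had medians of -1.71 with UPF1-1 and -1.52 with UPF1-2. With UPF1-1 32 of 44 passed as lower and 8 as higher by limma, beside 43.9% and 30.8% of all genes. With UPF1-2 29 passed as lower and 14 as higher, beside 44.2% and 31.5% of all genes. The counts of the next lists are to be read beside the same shares. RPLP2, a ribosomal protein gene, was lowest with UPF1-1 at -3.21 ± 0.09, while NOP56, which is both a host and a box C/D core protein, was highest at 1.44 ± 0.09. The 12 other noncoding hosts had medians of -0.96 and -1.31, with 4 higher and 7 lower with each isoform. The 12 NMD target mRNAs had medians of 0.46 and 0.37, with 7 higher and 3 lower with each isoform, among them NAT9 at 1.53 ± 0.08 with UPF1-1 and 1.73 ± 0.08 with UPF1-2. All lists would lie higher by 2.56 with UPF1-1 and by 2.53 with UPF1-2 at the median gene if medians were not set equal.

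**Figure D5:**
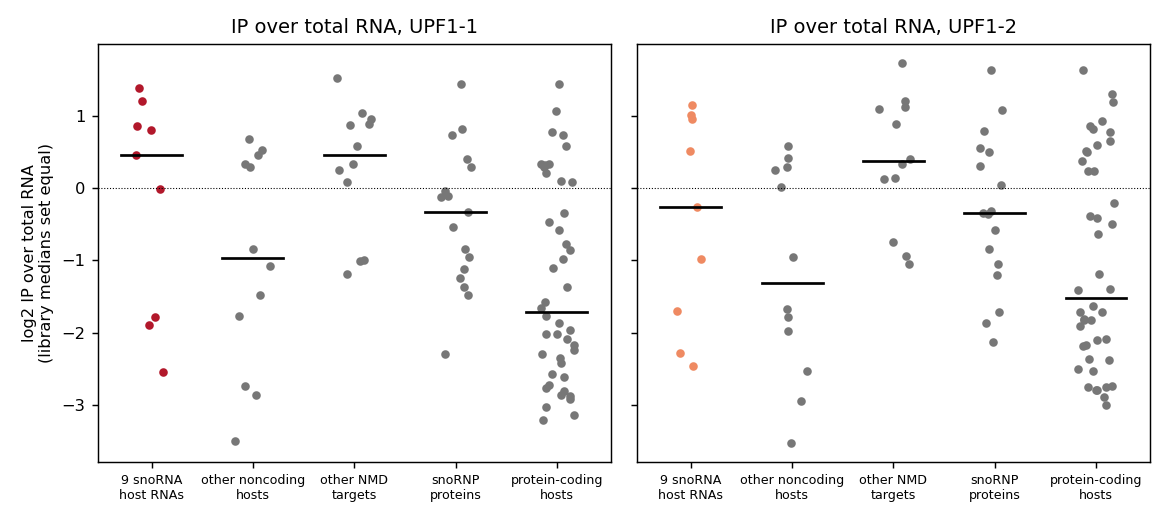
Recovery with UPF1-1 (left panel) and UPF1-2 (right panel) of the 9 host RNAs and of 4 lists, as log2 of IP over total RNA with library medians set equal. Each point is a gene and bars are medians; the 9 hosts spread between -2.54 and 1.38 with UPF1-1, while the protein-coding hosts have medians of -1.71 and -1.52.

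Finally the hosts were compared with one another over the 9 total RNA libraries, after medians were set equal. These correlations describe libraries that share the differences between lines and replicates. GAS5 and SNHG15 were most alike, at a Pearson r of 0.987, and SNHG5 and SNHG8 followed at 0.966. SNHG3 and SNHG1 were least alike at -0.146. Genes were eligible with a mean of at least 5 TPM over all 15 libraries, purifications included, so some of the named ones were below that level in total RNA. Of 7345 such genes, the closest to the mean of the hosts were CYB5A, an electron carrier of the endoplasmic reticulum, at 0.989, SAT1, an enzyme of polyamine breakdown, at 0.989, a transcript listed under a clone name (ENSG00000223478) at 0.989, CTC-359D24.3 at 0.983, with means of 1.59, 1.44 and 1.20 TPM in total RNA of the UPF1-1, UPF1-2 and GFP lines, and LINC00116 at 0.981.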

How the data were processed

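TPM per library had been computed by the authors. The submitters' processing notes name cutadapt, kallisto, sleuth and hg19, with no versions, and ribosomal RNA was depleted per the labels' protocols. The authors also deposited the ratio of IP to total TPM per replicate number, log2 fold changes of mean TPM, sleuth p-values and q-values, and, per the file headers, effect sizes and mean natural log values of normalized estimated counts, whose exponent ran between 223 (SNHG12) and 6312 (GAS5) for UPF1-1 with GFP, the depth behind the hosts. Each gene has 1 Ensembl transcript, and whether a value is of that transcript or of the gene is not stated.

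Genes that reached 1 TPM in 3 or more of the libraries in a fit were kept, log2(TPM + 0.5) was taken, library medians were set equal, and limma 3.58.1 (R 4.3.3) was fitted with a trend, over 9 total RNA libraries (9325 genes) or the 12 UPF1 libraries (11969 genes). Adjusted p is by Benjamini-Hochberg over all genes of a 2-sided test, with 0.05 as threshold. A block was the replicate number in total RNA and, with the IPs, each isoform's replicate number. Same-numbered libraries deviated together (in total RNA the 9 pairs had r of 0.701 to 0.953, 0.567 to 0.915 over 18 in the IP fit), as did numbers 1 and 2 (0.639 to 0.802 and 0.585 to 0.745), while number 3 against either was at -0.892 to -0.719 and -0.86 to -0.681. Deviations were taken from the mean of the group, so those of a gene within a group cancel out. With numbers 1 and 2 alike, a negative r for number 3 follows from this and is not a separate observation. The pairing of IP with total RNA comes from the labels and the deposited ratios. Hosts, lists, fit and rules were chosen with earlier results of these data known. Up to 4 genes per other list and comparison are named, those that changed most among called genes that average 5 TPM or more. The 5 genes most like the hosts' mean are named. Alternatives were the block, the scaling, the pseudocount, the filter and each replicate left out.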

Additional observations from a re-analysis of the deposited data

Results flagged for a closer look

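ZFAS1, SNHG15 and SNHG3 differed between the UPF1-1 and UPF1-2 lines in total RNA. Against GFP, ZFAS1 and SNHG15 were higher in both lines by different sizes of change, and passed in UPF1-1 only. SNHG3 was at -0.20 in UPF1-1 and 0.09 in UPF1-2, and passed in neither. The test of the difference itself gave 0.33 for ZFAS1, 0.30 for SNHG15 and -0.29 for SNHG3 on the log2 scale, UPF1-1 minus UPF1-2 (limma adjusted p = 0.0115, 0.0179 and 0.0267), and the direction was shared by 3 of 3 replicate numbers for each. ZFAS1 also differed in recovery, where IP over total RNA was higher with UPF1-1 than with UPF1-2 by 0.97 (limma adjusted p = 0.0426) in 3 of 3 replicate numbers.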

How the results depend on the processing

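Changes of the 9 hosts kept their direction in total RNA under all alternatives but one: SNHG7 between the isoforms ranged between -0.12 and 0.0096 with a replicate left out, the highest without replicate 1. The replicate block carried the calls in total RNA: with no replicate block, with or without equal medians, the hosts called were 0 higher for UPF1-1 and for UPF1-2 over GFP, 0 higher and 0 lower between the isoforms, and 0 for the difference in recovery. With the block and medians not set equal, 0 were called higher for UPF1-2 over GFP, 0 in either direction between the isoforms and 0 for the difference in recovery. In recovery this scaling called 8 higher and 0 lower with UPF1-1 and 7 higher and 0 lower with UPF1-2. Without the block it called 7 higher and 0 lower with UPF1-1 and 0 lower with UPF1-2. Of all 11969 genes tested, 11614 passed in either direction with UPF1-1 and 11613 with UPF1-2. Without the block 11054 and 11123 did, so nearly all genes passed and these counts are not particular to the hosts. With medians not set equal the log2 values with UPF1-1, the same with and without the block, were 0.0164 for SNHG3, 0.77 for SNHG5, 0.67 for SNHG8 and 2.55 for ZFAS1, and with UPF1-2 they were 2.26 for GAS5, 0.0631 for SNHG3, 0.24 for SNHG5, 0.83 for SNHG8 and 1.55 for ZFAS1; they turned positive because all genes moved up.

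With upper quartiles set equal, 2 hosts were lower for UPF1-1 over GFP, 2 higher for UPF1-2 over GFP, 2 lower between the isoforms and 3 higher in the difference in recovery, where SNHG3 was at 0.004. With a pseudocount of 1, 0 were higher in that difference, and ZFAS1 was recovered at 0.18 with UPF1-1. Leaving out a replicate gave 0 hosts higher for UPF1-2 over GFP each time, 0 to 1 higher and 0 to 1 lower between the isoforms, and 0 to 3 higher in the difference in recovery, and ZFAS1 recovered with UPF1-1 ranged between -0.21 without replicate 2 and 0.26 without replicate 3. The block on the ratio, added after seeing the data, gave 3 higher. With upper quartiles set equal 1614 of all 9325 genes passed in either direction for UPF1-1 over GFP. For the other counts of this paragraph the share of all genes is not given here, so they are not read as results about the hosts. Apart from the values named here the cause was not tested. SNHG12 had the fewest estimated counts of the 9 hosts, a geometric mean of 223 for UPF1-1 over GFP.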
